A study of Helix lucorum with 35 samples.

Results

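The 67 contigs described here had more RNA in the right than in the left parietal ganglion (PaG) of the land snail *Helix lucorum* in 2 separate experiments. They were chosen by measured values from the 693041 contigs of a de novo neuronal assembly. A contig was kept when its CPM, its count per 1000000 counts of the library, was higher on the right in each of 11 snails and when the mean of s, the log2 ratio of left over right after adding 0.5 CPM to both, was at most -0.7 in each experiment. The side difference is therefore what selected these contigs, and it is described below without a test. Of the 693041 contigs, 277 were higher on the right in all 11 snails, and the 67 that also passed both means make up 0.00967% of the assembly. The same rule with the sides exchanged gave 174 left-side contigs.

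RNA-Seq libraries were made from 13 snails in 2 experiments of 12 libraries each. In E2 (snails 7 to 13), the medial part of the PaG was dissected, which holds mostly the giant premotor interneurons Pa2/3, and 5 snails gave a right and a left library. In E1 (snails 1 to 6), each library came from the whole right or left side of the PaG network of 1 snail. In each experiment 6 libraries were activated and 6 were controls.

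Activation began with 10 min in saline containing 20 µM anisomycin, a blocker of protein synthesis, followed by 20 to 25 min in 100 µM caffeine and 5 µM serotonin with anisomycin still present. Before this step, snails were injected with magnesium chloride and the ganglia were kept in saline high in calcium and magnesium, which suppresses electrical activity. Control parts were frozen at that point, without anisomycin, caffeine or serotonin. Activated parts were moved to normal saline with the drugs and were frozen after the stimulation. The right part was activated in snails 7 and 9 of E2 and in snails 4 to 6 of E1, and the right part was the control in snails 8, 10, 11 and 13 of E2 and in snails 1 to 3 of E1. Snail 7 gave only an activated right library and snail 12 only a control left library. By the study's methods the left parts of E1 carried the adhering visceral ganglion, whereas the legend to its design states that this ganglion was not used. If it was present, the side and this tissue cannot be told apart in E1.

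Gastropods are asymmetric animals. The visceral mass rotates during development, and in right-coiling land snails such as Helix the breathing pore and the genital opening lie on the right side. The parietal ganglia belong to the ring of central ganglia around the oesophagus, and their giant interneurons are known as premotor cells of withdrawal. Each contig is identified by its number in the assembly, and no gene name or sequence of these contigs was used here.

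Library totals ran between 926483 and 35225724 expected counts, with the lowest total in the activated right library of snail 9. In that library 1 count equals 1.08 CPM, and 49 of the 67 contigs had 10 expected counts or fewer there. All 67 contigs passed the filter on low values, a total above 10, in E2 and in E1. On the left, 32 contigs had at least 1 library at 0, and a count of 0 in a left library allows up to 3 counts, or 0.0978 to 0.854 CPM depending on the library, for counting error only.

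The 67 contigs together were more abundant in every right library of the medial part than in any other library. Their summed level was 10958 to 33224 CPM in the 6 right libraries of E2 (median 22349.6 CPM), against 2948 to 5554 CPM in the 6 left libraries of E2 (median 3757 CPM). In E1 the sum was 2602 to 5127 CPM on the right (median 3383 CPM) and 1188 to 2467 CPM on the left (median 1910.45 CPM). The right and left groups did not overlap in this sum in either experiment. The contigs took 1.10 to 3.32% of all counts in the right libraries of E2. In bulk libraries such as these, more cells that carry an RNA and more of that RNA per cell cannot be told apart.

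**Figure D1:**
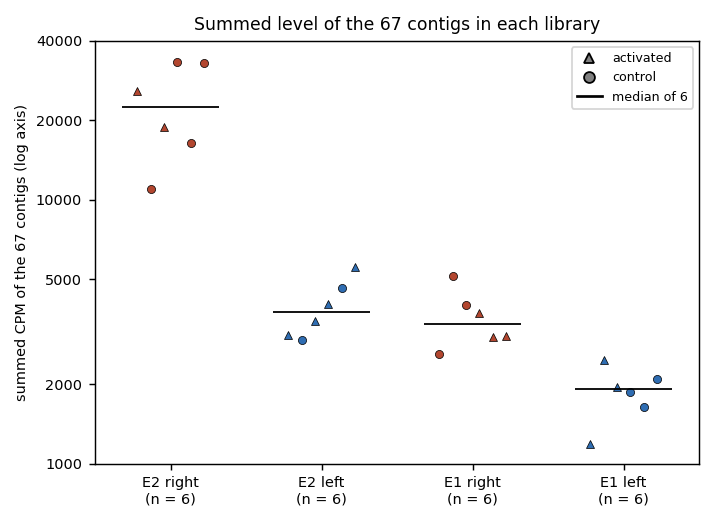
Summed CPM of the 67 contigs in each of the 24 libraries (log axis), with right libraries in red, left libraries in blue, activated libraries as triangles, control libraries as circles and the median of 6 libraries as a line. The 6 right libraries of E2 lie between 10958 and 33224 CPM, above the other 18 libraries.

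Most of this sum came from few contigs. The 8 contigs with a mean of 100 CPM or more over the right libraries of the 11 snails carried 95.9 to 98.5% of the summed CPM in the right libraries of E2 and 89.4 to 94.6% in the right libraries of E1. Another 9 contigs had a mean between 10 and 100 CPM, and 50 contigs had a mean under 10 CPM. The median over the 67 contigs was 5.07 CPM for the mean of the right libraries of the 11 snails and 1.21 CPM for the mean of the left libraries.

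For most of these contigs the ratio of right over left, which the rule used, was larger in E2 than in E1. Over the 11 snails the mean log2 ratio of right over left ran between 0.72 and 3.66 across the 67 contigs, with a median of 1.46. The median was 1.78 in E2 and 0.98 in E1, and 53 of the 67 contigs had the larger mean ratio in E2. These ratios had to pass the same cut in each experiment. Their SD between snails was also larger in E2, with a median over the 67 contigs of 0.83 against 0.51 in E1. Of all contigs, 1382 met the E2 part of the rule and 728 the E1 part. No difference between the medial part and the whole side is read from these ratios. By snail, the median log2 ratio over the contigs was 0.69, 1.66, 1.63, 2.33 and 2.30 in snails 8, 9, 10, 11 and 13 of E2, and 0.86 to 1.28 in the 6 snails of E1. Snail 8 stood apart within E2: it gave the smallest of the 11 ratios for 23 contigs and the largest for none, whereas snail 11 gave the largest for 22. The rule kept only contigs higher on the right in every snail, whichever side was activated. Nothing about activation is therefore read from these medians. In E2 snail 9 alone of the paired snails had the right part activated. In E1 the snail medians were 0.86, 1.10 and 1.19 where the right part was activated and 1.06, 1.28 and 0.90 where the right part was the control.

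**Figure D2:**
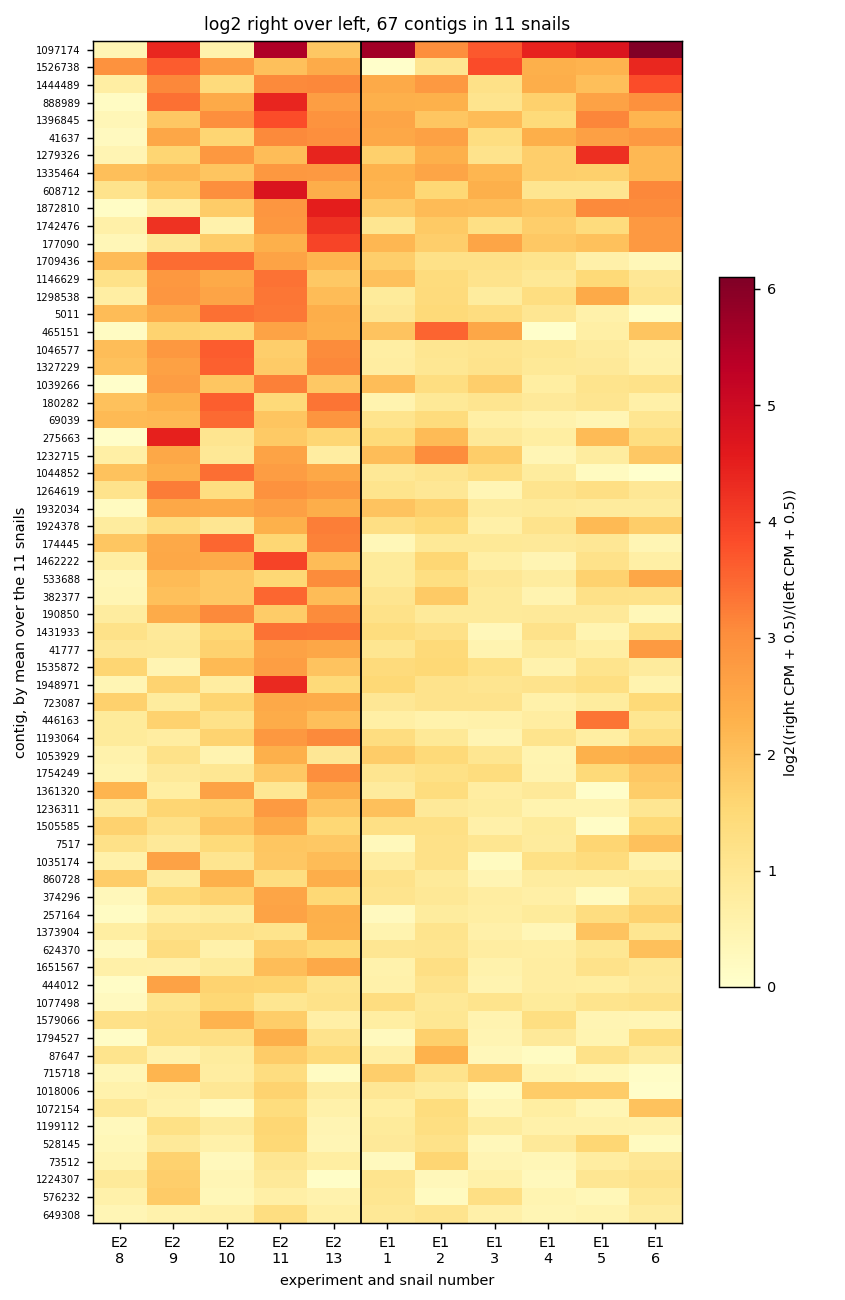
Log2 ratio of right over left CPM (0.5 CPM added to both) for the 67 contigs, in order of their mean, in the 5 paired snails of E2 and the 6 snails of E1. All values are above 0 by the choice of the contigs. The column of snail 8 is pale, with a median of 0.69, and those of snails 11 and 13 are dark, with medians of 2.33 and 2.30.

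The rule asked only for a difference within each snail, so the groups of libraries could still overlap between snails. All 6 right libraries were above all 6 left libraries for 37 of the 67 contigs in E2 and for 31 in E1, and for 22 contigs in both. Among all expressed contigs this held for 0.0879% in E2 and 0.141% in E1. The rule used the same contrast, and nothing is read from the difference between these shares.

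Contig 1097174 had the largest mean ratio of all. It had 0.171, 2.35 and 29.1 CPM as the lowest, median and highest value in the right libraries of E2, against 0, 0.0676 and 0.936 CPM in the left libraries. In E1 it had 3.45, 17.9 and 32.7 CPM on the right and 0, 0 and 0.587 CPM on the left. In E1 the groups were separate and 4 of the 6 left libraries had no count, while in E2 the groups overlapped. The mean log2 ratio was 2.54 ± 2.29 in E2 (SD, n = 5 snails) and 4.59 ± 1.16 in E1 (SD, n = 6 snails), the opposite order to most of the contigs. Within E2, the right libraries of snails 9 and 11 held 29.1 and 23.4 CPM, and those of snails 7, 8 and 10 held 0.745, 0.171 and 0.384 CPM.

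Contig 1526738 was second by the mean ratio. It had 0, 3.08 and 15.1 CPM as the lowest, median and highest value in the right libraries of E2, against 0, 0 and 1.65 CPM in the left libraries. In E1 it had 1.87, 7.46 and 10.9 CPM on the right and 0, 0.623 and 4.95 CPM on the left. The groups overlapped in both experiments. In snail 1 it had 3.25 CPM on the right and 3.13 CPM on the left, close to equal, and it was the only one of the 67 contigs with no count in a right library, that of snail 7.

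Contigs 1444489 and 41637 had nearly the same levels. In E2, 1444489 had 3.09, 6.89 and 28.9 CPM as the lowest, median and highest value on the right and 0.315, 1.50 and 2.90 CPM on the left, and 41637 had 2.83, 8.94 and 23.8 CPM on the right and 0.641, 1.48 and 2.54 CPM on the left. In E1 the right libraries had 2.78, 6.14 and 10.6 CPM of 1444489 and the left libraries 0.279, 0.802 and 1.14 CPM. The right and left libraries did not overlap for either contig in either experiment, and for both contigs snail 13 had the highest right value of E2.

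Contigs 888989 and 1396845 reached their highest level in snail 11. For 888989 the right libraries of E2 had 1.97, 9.15 and 39.8 CPM as lowest, median and highest and the left libraries 0.468, 1.29 and 2.33 CPM. In E1 the right libraries had 0.918, 4.37 and 5.85 CPM of 888989 and the left libraries 0.167, 0.313 and 1.34 CPM, with an overlap through the right library of snail 3 and the left library of snail 4. For 1396845 the right libraries of E2 had 1.89, 6.59 and 17.4 CPM and the left libraries 0.218, 0.616 and 1.40 CPM. The right and left groups of 1396845 were separate in both experiments.

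Contigs 1279326 and 1335464 completed the 8 largest mean ratios, and neither overlapped between the sides in either experiment. Contig 1279326 had 3.54, 7.96 and 17.4 CPM in the right libraries of E2, against 0.338, 1.02 and 2.50 CPM in the left libraries, as lowest, median and highest. The E1 libraries had 4.63, 7.62 and 11.9 CPM on the right and 0, 1.88 and 1.98 CPM on the left. Contig 1335464 was the most even of the 8, with a log2 ratio of 2.35 ± 0.43 in E2 (SD, n = 5 snails) and 2.10 ± 0.32 in E1 (SD, n = 6 snails) and no snail under 1.71. Its level was low: the median was 3.20 CPM on the right and 0.185 CPM on the left in E2, and 1.83 CPM on the right and 0.10 CPM on the left in E1.

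**Figure D3:**
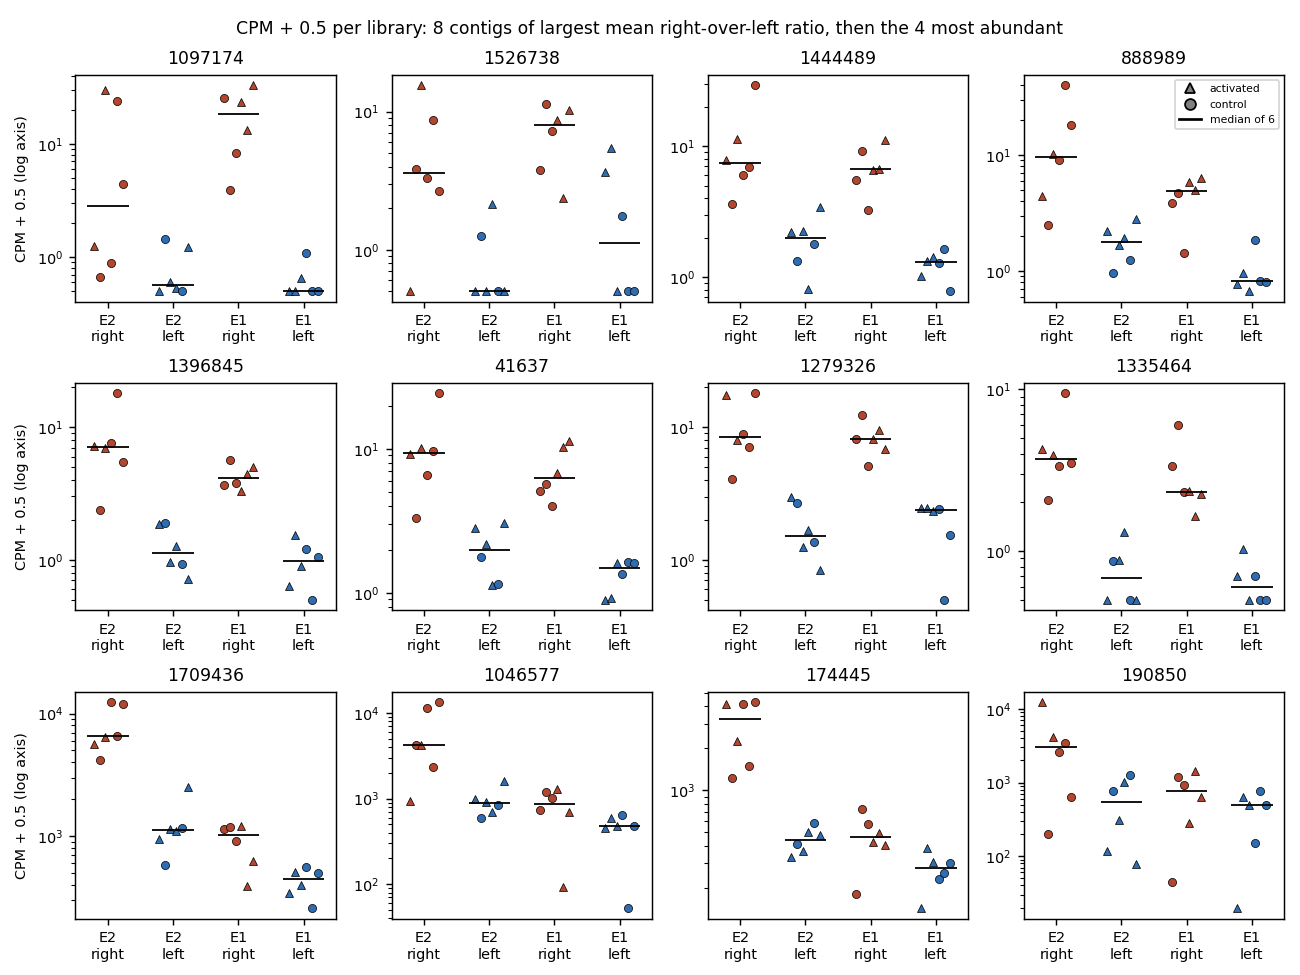
CPM + 0.5 in each library (log axes) for the 8 contigs with the largest mean right-over-left ratio and the 4 most abundant contigs, with right libraries in red, left libraries in blue, activated libraries as triangles, control libraries as circles and lines at the medians of 6 libraries. Contig 1097174 spreads between 0.171 and 29.1 CPM in the right libraries of E2, and contig 1709436 lies at 4144 CPM or more there.

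The most abundant contig was 1709436. It had 4144, 6511 and 12447 CPM as the lowest, median and highest value in the right libraries of E2, against 586, 1123 and 2538 CPM in the left libraries, with no overlap. In E1 it had 395, 1028 and 1209.7 CPM on the right and 257, 449.9 and 557 CPM on the left. The E1 groups overlapped through snail 5, whose right library was the lowest on its side. The mean log2 ratio of right over left was 2.77 ± 0.64 in E2 (SD, n = 5 snails) and 1.03 ± 0.49 in E1 (SD, n = 6 snails).

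Contig 1046577 differed widely between snails. It had 927, 4219 and 13485 CPM as lowest, median and highest in the right libraries of E2, against 597, 880.1 and 1627 CPM in the left libraries. In E1 it had 91.5, 871 and 1291 CPM on the right and 51.7, 479 and 649 CPM on the left. Snail 5 held the lowest value of E1 on both sides, and the next lowest were 705 CPM on the right and 451 CPM on the left. The ratio within a snail varied less than these levels in E1, with a mean log2 of 2.66 ± 0.76 in E2 (SD, n = 5 snails) and 0.86 ± 0.21 in E1 (SD, n = 6 snails).

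Contig 190850 varied most between animals. It had 199, 3042 and 12485 CPM as lowest, median and highest in the right libraries of E2, against 76.6, 543 and 1249 CPM in the left libraries. The E1 libraries had 43.9, 773 and 1441 CPM on the right and 19.0, 496 and 776 CPM on the left. Both sides of a snail moved together: snail 1 was the lowest and snail 5 the highest on both sides of E1. After the side was taken out, the SD between snails of its log2 level was 1.69 in E2 and 1.95 in E1, against a median over the 67 contigs of 0.50 in E2 and 0.39 in E1. Its log2 ratio of right over left was 2.22 ± 0.97 in E2 (SD, n = 5 snails) and 0.85 ± 0.27 in E1 (SD, n = 6 snails).

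Contig 174445 moved with 2 others, 1327229 and 180282. It had 1223, 3227 and 4313 CPM as lowest, median and highest in the right libraries of E2, against 330.3, 442 and 587 CPM in the left libraries, with no overlap. The E1 libraries had 179, 459 and 736 CPM on the right and 141, 277 and 386 CPM on the left. Once the mean of each experiment and side was subtracted from the log2 levels, the 3 contigs correlated over the 24 libraries at Pearson's r of 0.91 to 0.99. The log2 ratio of 180282 over 174445 was -3.38 as a median, with an SD of only 0.12 over the 24 libraries, so this pair kept nearly a fixed proportion in every library.

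Such tight links were rare among the 67 contigs. Of the 2211 pairs, 12 reached r of 0.8, and the median r was 0.14. Grouping by the average r between contigs, with 0.8 as the cut, put 16 contigs into 7 groups, and 51 contigs stood alone. Besides the 3 above, the groups were 1046577 with 69039 (r = 0.92), 1199112 with 649308 (r = 0.91), 465151 with 1232715 (r = 0.90), 177090 with 1754249 (r = 0.82), 1444489 with 41637 (r = 0.81), and 1146629, 1039266 and 374296 (r = 0.80 to 0.91). The libraries of these correlations include both sides of the same snails, and contigs of one transcript or of near-identical copies could share reads, which was not tested.

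At the edge of the rule, 576232 and 649308 were the last contigs inside and 1056118 and 1623342 the first outside. For 576232 the mean log2 ratio of right over left was 0.78 in E2 and 0.71 in E1, and for 649308 it was 0.72 in both. For 1056118 the mean was 0.66 in E2 and 1.27 in E1, and for 1623342 it was 0.66 in E2 and 0.79 in E1. Both outside contigs were higher on the right in all 11 snails and missed only the mean in E2, so the border passes between contigs of nearly equal ratio.

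The right library of snail 7 and the left library of snail 12 took no part in the choice. Set against each other, 60 of the 67 contigs (89.6%) were higher in the right library of snail 7, 6 were lower and 1 was at 0 in both. Of the 294392 contigs that E2 and E1 both expressed, 151781 (51.6%) were higher in snail 7, 109464 were lower and 33147 were equal in both. Among the 174 left-side contigs 7 were higher in snail 7. The median log2 ratio was 1.65 for the right-side contigs, 0.06 for all contigs expressed in both experiments and -4.16 for the left-side contigs. A difference of over 2-fold was seen for 45 of the 67 contigs, against 9.27% of all. Of the 661 contigs that met the rule in E1 but not in E2, 379 (57.3%) were higher in snail 7, 207 were lower and 75 were equal.

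The largest ratio in this pair was that of 177090, with 10.2 CPM in snail 7 and a log2 ratio of 4.14. Contig 1279326 had 17.0 CPM in the right library of snail 7 and 0.860 CPM in the left library of snail 12. Contig 190850 had 12485 CPM in snail 7 and 1249 CPM in snail 12, each the highest of its side in E2. The contigs that went the other way were 528145, 715718, 1072154, 275663, 576232 and 69039, and 4 of these had under 2.0 CPM in snail 7. For 275663 the values were 9.09 CPM in snail 7 and 13.5 CPM in snail 12, and for 69039 they were 8.25 and 8.54 CPM. The value of snail 7 was above all 5 left libraries of the paired E2 snails for 53 contigs, and that of snail 12 was below the median of their 5 right libraries for all 67. The rule chose these contigs as low in those left and high in those right libraries, so these counts partly restate it. No share over all contigs was computed for them, and nothing is read from them. The libraries of snails 7 and 12 are single libraries of different snails, 1 activated and 1 control. Side, animal and treatment therefore cannot be told apart in this pair, and no test was made.

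**Figure D4:**
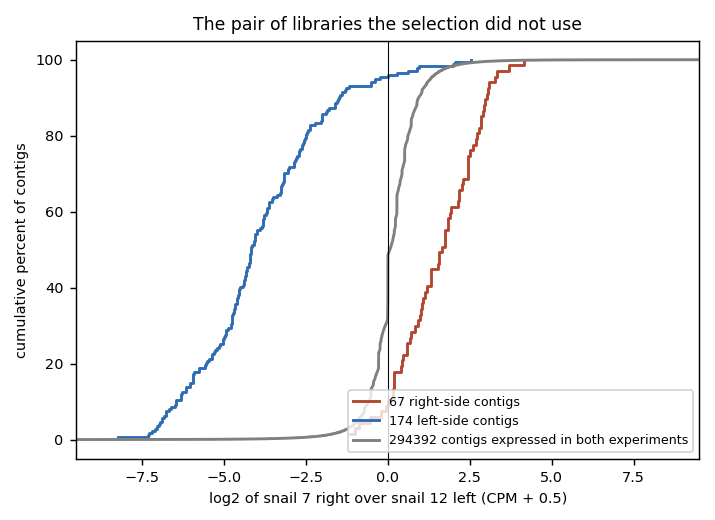
Cumulative percent of contigs by the log2 ratio of the right library of snail 7 over the left library of snail 12 (0.5 CPM added to both), for the 67 right-side contigs, the 174 left-side contigs and all 294392 contigs expressed in both experiments, with a line at 0. The right-side curve is shifted to positive ratios (median 1.65) and the left-side curve to negative ratios (median -4.16), while all contigs centre on 0.06.

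Activated and control libraries were compared with the quasi-likelihood test of edgeR on the counts, with the side as a covariate and without a block for the snail. The spread between snails therefore stayed in the error of this test. Activated parts also differed from controls in anisomycin, in the saline and in the later freezing. These cannot be told apart from serotonin and caffeine in this comparison. The rule itself holds any effect of activation below the side difference of the same contig, since each contig had to be higher on the right whichever side was activated. No contig of the 67 passed an adjusted p of 0.05 in E2 or in E1. By this test no contig of all passed either (0.0% of 317414 in E2 and 0.0% of 387774 in E1), whereas DESeq2 called 247 in E2 and 521 in E1 and the exact test of edgeR 107 in E2 and 360 in E1. At an unadjusted p under 0.05, 1 of the 67 contigs was lower and none higher in E2, against 2.84% of all contigs in both directions, and none of the 67 reached it in E1, against 2.29%. With DESeq2 and with the exact test of edgeR, 0 of the 67 contigs passed in either experiment. With the snail as a block, edgeR called 152 of all contigs in E2 and 3074 in E1, and of the 67 contigs 0 in E2 and 1 in E1.

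In E2 the contig with the smallest p was 1535872. It had 4.33 and 4.14 CPM in the activated right libraries and 10.1 to 20.0 CPM in the control right libraries, and 1.98 to 3.06 CPM in the activated left libraries and 2.92 and 3.76 CPM in the control left libraries. On the right the activated and control libraries did not overlap, and on the left they did. The 4.14 CPM on the right, in snail 9, rested on 3.84 expected counts. The log2 ratio of activated over control was -1.14 ± 0.47 (SE), with an adjusted p of 1 and an unadjusted p of 0.0297 by edgeR's quasi-likelihood test. The next were 1505585 (log2 ratio -0.92 ± 0.44, SE) and 723087 (-0.80 ± 0.53, SE), both with an adjusted p of 1 by the same test. The median log2 ratio of the 67 contigs was -0.28, with 51 below 0, beside a median of -0.08 over all contigs. In this experiment 4 of the 6 right libraries were controls, and the activated ones were those of snails 7 and 9.

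In E1 the contig with the smallest p was 465151. On the right it had 0.950, 11.7 and 8.71 CPM in the activated libraries of snails 4 to 6 and 5.52, 14.0 and 6.85 CPM in the control libraries of snails 1 to 3. On the left it had 1.05, 0.749 and 0.788 CPM in the activated libraries of snails 1 to 3 and 0.913, 7.12 and 1.96 CPM in the control libraries of snails 4 to 6. The activated and control libraries overlapped on the right and on the left. The log2 ratio of activated over control was -0.99 ± 0.57 (SE), with an adjusted p of 1 by edgeR. When the snail was added to the model as a block, the ratio of 465151 was -1.14 ± 0.26 (SE) with an adjusted p of 0.00287 by edgeR, and it was the only one of the 67 contigs called, against 0.192% of all contigs called lower in that model. Its partner 1232715 had a log2 ratio of -0.94 ± 0.31 (SE) and an adjusted p of 0.182 by edgeR in the blocked model, and 257164, second by p in the model without the block, had 0.47 ± 0.28 (SE) in that model. The median log2 ratio of the 67 contigs in E1 was -0.02 without the block, with 31 above 0 and 36 below, beside a median of 0.01 over all contigs.

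The medial part of E2 and the whole side of E1 were then compared in the control libraries, with the side as a covariate (6 libraries of each experiment). Of the 67 contigs, 9 were higher in E2 at an adjusted p of 0.05 by edgeR's quasi-likelihood test and none was lower. Among the 359416 contigs tested, 0.248% were called higher and 0.654% lower. With DESeq2, 16 of the 67 were called higher and 1 lower, against 0.985% and 1.42% of all contigs. In a fit of all 24 libraries, which counts both libraries of 11 snails as separate samples, 25 were called higher and 1 lower, against 2.21% and 3.63% of all contigs. The median log2 ratio of E2 over E1 was 1.31 for the 67 contigs, with 56 above 0, and -0.01 for all contigs. The 174 left-side contigs had a median of 1.61, with 7 called higher, and the 661 contigs that met the rule only in E1 had a median of -0.26. Scaled with the size factors of DESeq2, 57 of the 67 contigs were above 0, against 48.8% of all contigs. The same scaling put 162 of the 174 left-side contigs above 0, so this trait is not particular to the right-side contigs. The experiments differ in the tissue taken and in the snails, which cannot be told apart here.

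The 9 contigs that rose were 1579066, 649308, 1199112, 1044852, 5011, 180282, 1327229, 1709436 and 174445, and 6 of them are among the 8 most abundant. Contig 1579066 had 27.1, 53.6 and 71.0 CPM as lowest, median and highest in the right libraries of E2, against 4.68, 6.98 and 8.28 CPM in those of E1. On the left it had 11.5, 15.7 and 30.9 CPM in E2 and 2.60, 3.90 and 5.86 CPM in E1. The experiments did not overlap on either side, and the log2 ratio of E2 over E1 was 3.27 ± 0.38 (SE, adjusted p = 0.000348 by edgeR). Contigs 649308 and 1199112, which moved together between libraries, had log2 ratios of 2.43 ± 0.34 and 2.54 ± 0.37 (SE). On the left, 649308 had 209 to 306 CPM in E2 and 56.8 to 81.6 CPM in E1.

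For the other 6 called contigs the fitted ratio of E2 over E1 was larger on the right than on the left. This contrast rests on the ratios of right over left that the rule used, and nothing is read from it. Contig 5011 had 10.8, 43.2 and 73.7 CPM as lowest, median and highest in the right libraries of E2, against 2.98, 5.11 and 6.85 CPM in those of E1, and its log2 ratio was 3.00 ± 0.59 (SE, adjusted p = 0.0226 by edgeR). On the left it had 2.14, 6.27 and 7.48 CPM in E2 and 1.45, 2.41 and 3.17 CPM in E1, which overlapped through snail 8. Contig 1044852 had 6.74, 16.5 and 23.9 CPM on the right in E2 and 0.850, 1.92 and 2.40 CPM in E1. Contig 69039 had one of the 3 highest log2 ratios, 3.01 ± 0.75 (SE), without passing (adjusted p = 0.0857 by edgeR), and its right libraries ran between 8.25 and 122 CPM in E2.

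At the other end, the 3 lowest ratios of E2 over E1 were those of 73512, 465151 and 1264619, and none passed in the control libraries by edgeR. Contig 73512 was the one called lower with DESeq2 and with all 24 libraries. Contig 73512 had 0.376, 1.04 and 2.07 CPM as lowest, median and highest in the right libraries of E2, against 1.53, 4.35 and 9.40 CPM in those of E1, with a log2 ratio of -2.12 ± 0.67 (SE, adjusted p = 0.202 by edgeR). Contig 1264619 had a log2 ratio of -0.73 ± 0.83 (SE, adjusted p = 0.916 by edgeR). It had 4.85 CPM in E2 and 4.16 CPM in E1 as medians on the right, and 0.24 CPM in E2 and 1.89 CPM in E1 on the left.

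Each side was also fitted alone with the treatment as a covariate, an analysis chosen after the data were seen. For these contigs a contrast of the right and left fits rests on the ratios of right over left that the rule used. No difference between the sides is therefore read from it. With the 6 right libraries of each experiment, the same 9 contigs were called higher in E2, against 0.137% of all contigs. With the 6 left libraries, 6 were called, all among the 9, against 0.319% of all contigs. The 3 that were not called on the left were 180282, 1327229 and 174445, the 3 abundant contigs that varied together. For 174445 the log2 ratio was 3.04 ± 0.54 on the right (SE, adjusted p = 0.00886 by edgeR) and 1.32 ± 0.36 on the left (SE, adjusted p = 0.109 by edgeR), and the difference between the sides was not tested. Of the 174 left-side contigs, 106 were called higher in E2 in the left libraries. In the right libraries 165 of them were tested, with 0 called higher and 2 lower. Calls on the own side are thus not particular to the right-side contigs.

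**Figure D5:**
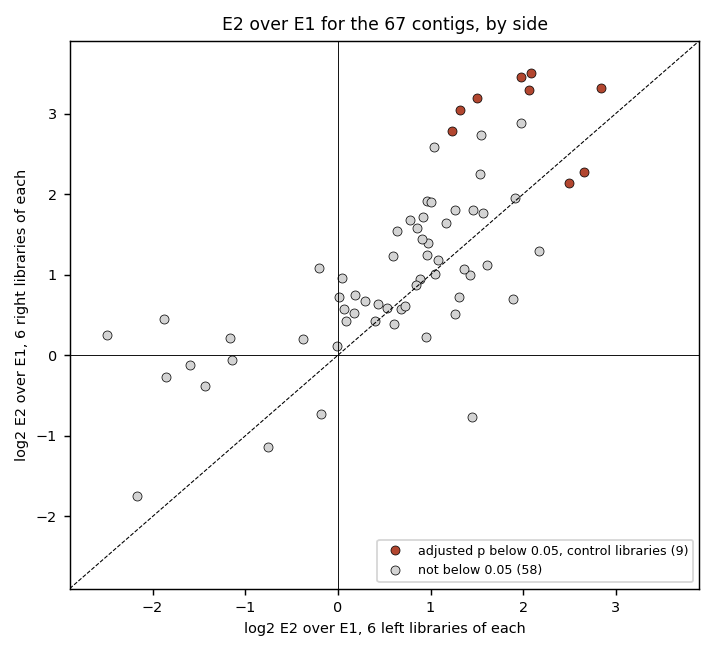
Log2 ratio of E2 over E1 for the 67 contigs, fitted in the 6 right libraries of each experiment (vertical axis) and in the 6 left libraries of each (horizontal axis), with the line of equal ratios dashed. The 9 contigs called in the control libraries are red and lie above 2 on the vertical axis, and 7 of them lie above the dashed line.

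The count of called contigs rested on the libraries used. Without the right library of snail 1, 2 or 3 of E1 or the left library of snail 12 of E2, each taken away singly, 4 of the 67 contigs were called, and 1579066, 649308, 1199112 and 1044852 passed in each of the 12 fits that left out 1 library. The remaining 5 kept a log2 ratio above 2 in all these fits, and 174445 passed in 3 of the 12.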

How the data were processed

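The authors trimmed reads with cutadapt 1.11, assembled contigs de novo, mapped reads with Bowtie 1.0.0 and estimated counts with RSEM 1.2.18, per the submitters' processing notes and the methods. The deposited values are expected counts of each contig in each library, not normalized and not filtered. The methods describe stranded total RNA after rRNA depletion, whereas the labels name polyA RNA. The columns of 24 libraries were matched to samples by name, and 11 samples used only for the assembly were not analysed here. Counting of reads shared by similar contigs is an estimate, so near-identical contigs are uncertain.

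CPM were counts divided by the column sum and multiplied by 1000000. For the tests the expected counts were rounded, a contig needed a total above 10, and edgeR 4.0.16 (TMM factors, quasi-likelihood test, Benjamini-Hochberg adjustment over all contigs tested) was run in R 4.3.3, with side as covariate. Alternatives were the exact test that the study used, DESeq2 1.42.0, other scalings and filters, a block for the snail and leaving out single libraries. Both sides came from the same animal, and the deviations of the 2 libraries of a snail correlated at 0.467 to 0.759 in E2 and 0.712 to 0.87 in E1, so the numbers pair the samples.

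Named contigs were the 8 with the largest mean ratio of right over left, the 4 most abundant in right libraries, the 3 with the smallest p for activation in each experiment, the 3 highest and 3 lowest ratios of E2 over E1, and 2 on each side of the threshold. Other contigs were named after their values were seen. The contigs and comparisons were chosen with earlier results of these data known.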

Additional observations from a re-analysis of the deposited data

Results flagged for a closer look

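Within groups of 6 libraries, Dixon's gap test was applied to the log2 level of the named contigs and to the summed level of the 67 contigs, 104 groups in all, and 11 groups had a library far from the others. Chance gives about 1 in 20 such groups, or 5.2 here. Snail 5 of E1 supplied 6 of the 11. Contig 1046577 had 91.5 CPM in its right library, against 705 to 1291 CPM in the other right libraries of E1, and 51.7 CPM in its left library, against 451 to 649 CPM. The partner contig 69039 had 0.895 CPM in the right library of snail 5, against 4.53 to 9.89 CPM in the others. In the left library of the same snail, 465151 was the highest at 7.12 CPM (0.749 to 1.96 CPM in the others), 1232715 was the highest at 4.27 CPM (0.361 to 1.12 CPM), and 1279326 was at 0 (1.04 to 1.98 CPM).

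Snail 8 of E2 had the lowest left values of 5011, with 2.14 CPM against 5.12 to 7.48 CPM, and of 576232, with 0.0 CPM against 1.22 to 2.37 CPM. Snail 4 of E1 had the highest left values of 1097174, with 0.587 CPM against 0.0 to 0.155 CPM, and of 888989, with 1.34 CPM against 0.167 to 0.467 CPM. The right library of snail 3 had the lowest value of 888989, with 0.918 CPM against 3.34 to 5.85 CPM.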

How the results depend on the processing

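The number of contigs that met the rule was 67 and became 116 with 0.1 CPM added in place of 0.5, and 66 to 146 when 1 snail was left out (146 without snail 8). With TMM scaling 48 contigs met it, all among the 67. Activation called 0 of all contigs in E2 and in E1, and called 247 in E2 and 521 in E1 with DESeq2, 107 in E2 and 360 in E1 with the exact test without side, and 152 in E2 and 3074 in E1 with the replicate block for the snail. Leaving out 1 library gave 0 to 26 in E1 (26 without the right library of snail 2). Among the 67 contigs the replicate block called 0 in E2 and 1 in E1 and changed no other call. In E2, 1 paired snail alone, snail 9 with the shallowest library, had the right part activated. The median log2 ratio of all contigs in the blocked model of E2 was -0.83. Without the side as a covariate the median activation ratio of the 67 contigs in E2 was -1.07. For E2 over E1, 9 of the 67 contigs were called, all higher. DESeq2 called 17 (16 higher, 1 lower), and the fit of all 24 libraries called 26 (25 higher, 1 lower). With 1 CPM in 6 libraries, 14 of 55 tested were called, all higher. Under that filter 4.09% of the 67426 contigs tested were called, 1119 higher and 1638 lower. Right control libraries only gave 1 of the 67 contigs, and leaving out 1 library gave 4 to 9. Over all contigs the call of 3243 became 8556 with DESeq2, 26567 with all 24 libraries, a fit that counts both libraries of 11 snails as separate samples, 881 with right control libraries only and 2019 to 2791 without 1 library (2019 without the right library of snail 1). Scaling by column sums moved the median over all contigs to -0.49 and that of the 67 to 0.77, so that the distance between them was 1.27, against 1.32 with TMM, and 6 contigs were called. With the 6 left libraries of each experiment the median of the 67 was 0.91. No called contig changed sign under the alternatives run.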
